A study of Mus musculus with 7 samples.

Results

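Immune cells can redirect arginine, tryptophan and the citrate cycle through a small set of inducible enzymes, and 9 genes for such enzymes were examined here in lung dendritic cells. The arginine enzymes are Arg1, Arg2, Nos2 and Ass1, the tryptophan enzymes Ido1, Ido2, Kynu and Il4i1, and the itaconate enzyme Acod1, which older annotations call Irg1. A member was measured where a probeset of the array carried its symbol and no other symbol, and a gene's probeset was chosen by its brightness, the mean of its values on the 7 arrays. Of the 9 genes, 7 had such a probeset among 19938 genes tested, and as each of them had just 1, brightness left nothing to choose. Ass1 and Il4i1 were left without a value, because every probeset that lists them also lists a second locus, Gm5424 or Il4i1b.

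The values come from 7 Mouse Gene 1.0 ST arrays of lung cDC2s, the CD11b+ conventional dendritic cells that take up inhaled antigen and present it to T cells. Each array held RNA from a pool of 10 female C57Bl/6 mice, whose cells had been sorted as positive for CD11c, MHC-II and CD11b and negative for Ly6C and CD64. The groups were Irf3-deficient mice given house dust mite extract (3 arrays), wild type mice given the extract (2 arrays) and wild type mice given PBS (2 arrays). Cells were taken 12 hours after 100 µg of extract or the saline control. The protein Irf3 is known as an activator of interferon-beta and other genes when viral or bacterial products are sensed. The ages of the mice and the nature of the Irf3 allele are not given in the sources used here. Irf3-deficient mice given PBS were not analysed here, so a difference between the genotypes that was there before treatment cannot be told apart from a different response. In pooled RNA of this kind, fewer cells of a type and less RNA per cell cannot be told apart either.

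As background, arginases hydrolyse arginine to ornithine and urea, whereas the inducible nitric oxide synthase turns the same amino acid into nitric oxide and citrulline. The indoleamine dioxygenases open the ring of tryptophan, which starts the kynurenine pathway, and kynureninase acts further along it. Acod1 makes itaconate from cis-aconitate, an intermediate of the citrate cycle, and Nos2, Ido1 and Acod1 are known as genes that microbial products and interferons induce in macrophages and dendritic cells.

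All values below are log2 expression values as deposited, so a difference of 1 is a factor of 2. Over the single-symbol genes the lower quartile, median and upper quartile of the mean level were 6.70, 7.92 and 9.61, and these serve as a guide to brightness because no detection calls accompany the values. Irf3 followed the labels, with 8.26, 8.13 and 8.30 in the Irf3-deficient arrays, against 9.57 to 9.59 in mite-treated and 9.48 to 9.56 in PBS-treated wild type arrays. The Irf3-deficient values still lay above the median gene, and whether they reflect remaining Irf3 RNA was not tested. Over all probesets, arrays correlated at 0.992 to 0.994 within a group and at 0.976 to 0.988 between groups. Means for a list of 12 cDC2 markers lay between 11.53 and 11.91 in all arrays, while means for 10 neutrophil markers and for 9 T, NK and B cell markers lay between 6.73 and 7.23. Markers of other lung cells were brighter, with means of 9.26 to 9.87 for 8 cDC1 markers, 9.52 to 9.98 for 8 alveolar macrophage markers and 9.97 to 10.61 for 7 lung epithelial markers. Brightest of these lists were 14 monocyte and interstitial macrophage markers, with means of 10.41 to 12.02, a range that takes in that of the cDC2 markers. Among the epithelial markers, Sftpc, the surfactant protein gene of alveolar type II cells, lay between 11.88 and 13.10, and Scgb1a1, the secretoglobin gene of club cells, between 11.41 and 13.57.

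Mite extract raised 5 of the 7 measured enzyme genes in wild type cDC2s (Arg2, Acod1, Nos2, Ido1 and Kynu) and lowered none. In mite-treated Irf3-deficient cells, 3 of these 5 (Nos2, Ido1 and Kynu) were lower than in mite-treated wild type, and Arg2 alone of the 7 was higher, by a factor of 3.99. Differences were tested with limma in 1 fit of all 7 arrays, adjusted by the Benjamini-Hochberg method over all 19938 genes, with 0.05 as the threshold. By that rule, 17.6% of all genes passed for mite-treated against PBS-treated wild type (8.35% higher, 9.23% lower). For mite-treated Irf3-deficient against mite-treated wild type 19.7% passed (10.7% higher, 9.0% lower), and for mite-treated Irf3-deficient against PBS-treated wild type 10.8% (5.89% higher, 4.91% lower). The median difference over the 7 members was 0.99 in the first comparison, -0.44 in the second and 0.20 in the third, beside medians of 0.03, 0.00 and 0.04 over all genes. The comparisons share arrays, and the mite-treated wild type arrays enter the first and the second with opposite signs, so their directions are not independent of each other.

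**Figure D1:**
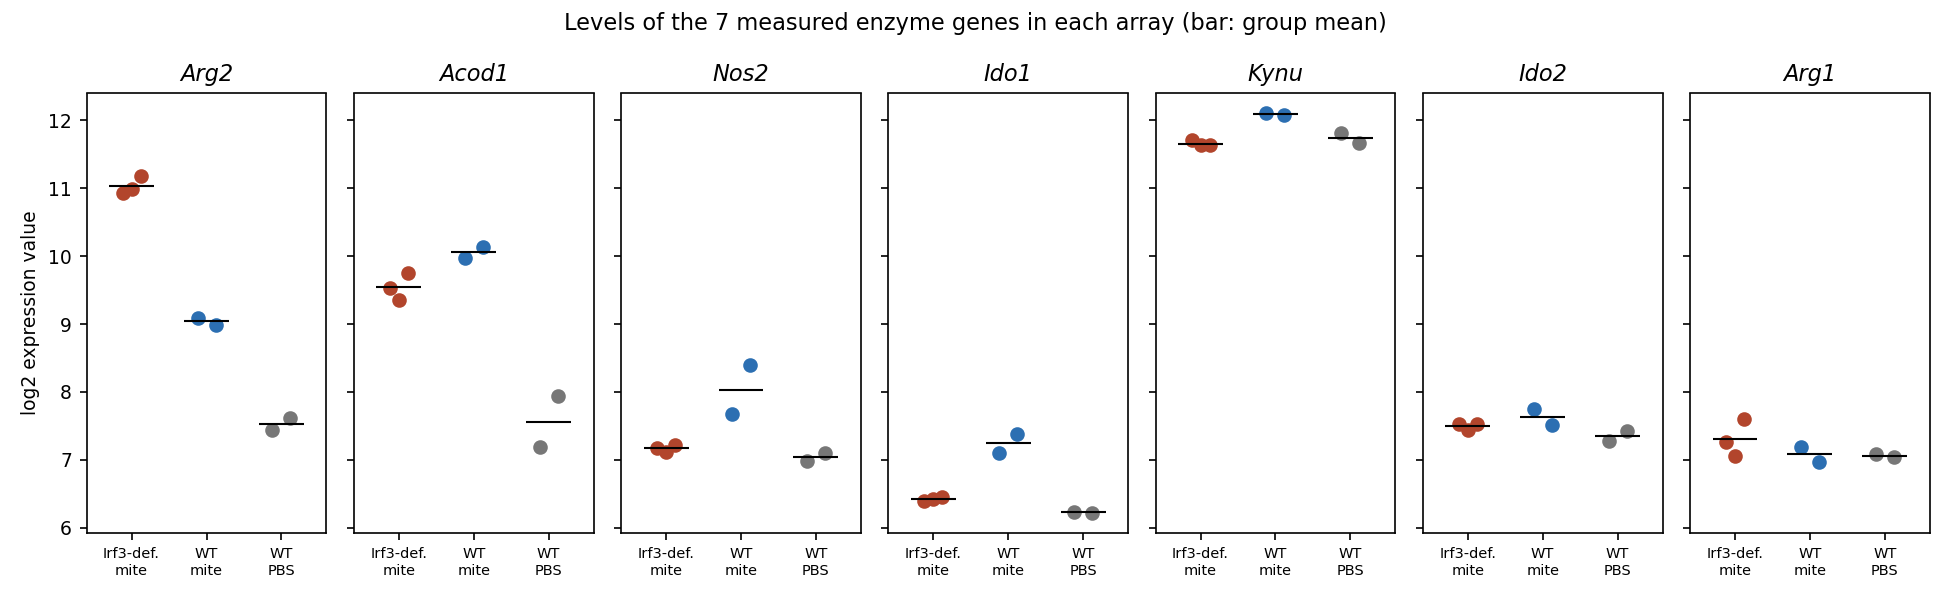
Log2 expression value (vertical axis) of each measured enzyme gene in each of the 7 arrays; points are arrays, bars are group means, and the groups are mite-treated Irf3-deficient (3), mite-treated wild type (2) and PBS-treated wild type (2). Arg2 has its highest values in the Irf3-deficient arrays, at 10.94 to 11.19, while Nos2, Ido1 and Kynu have theirs in the mite-treated wild type arrays.

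Arg2, the mitochondrial arginase, showed the widest range of the 7 genes, 3.75 between its lowest and highest array. Its level was 10.94, 10.99 and 11.19 in the mite-treated Irf3-deficient arrays, against 9.09 and 8.98 in mite-treated and 7.44 and 7.62 in PBS-treated wild type arrays. The 3 groups formed separate steps with no overlap, and the PBS-treated arrays lay below the median gene. In wild type the gene rose 2.85-fold with mite extract (95% CI 2.35 to 3.46, adjusted p = 3.81e-06). Irf3-deficient treated cells stood 3.99-fold above wild type treated cells (95% CI 3.35 to 4.76, adjusted p = 2.07e-07). They stood 11.4-fold above PBS-treated wild type (95% CI 9.56 to 13.6, adjusted p = 6.12e-09). Arg2 was called in each comparison in all 16 alternative settings, with log2 differences between 1.92 and 2.05 for the genotypes and between 1.42 and 1.60 for the wild type response.

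Genes beside Arg2 also differed between the treated genotypes. In the RefSeq table of GRCm38.p6, 13 measured genes lie within 500 kb of Arg2, and 2 of them were higher and 2 lower in Irf3-deficient cells, beside 19.7% called among all genes. Both higher genes come directly after Arg2. Vti1b, which encodes a SNARE protein of vesicle fusion and whose annotated span overlaps the end of Arg2, read 10.98, 10.91 and 10.90 in mite-treated Irf3-deficient arrays, against 9.80 and 10.06 in mite-treated and 9.74 and 9.37 in PBS-treated wild type arrays. Its Irf3-deficient arrays lay above all 4 wild type arrays. It was higher by 1.00 ± 0.13 in mite-treated Irf3-deficient cells (SE, adjusted p = 0.00014), whereas its wild type response, 0.38, did not pass (adjusted p = 0.0857). Rdh11, a retinol dehydrogenase gene and the next in order, was higher by 0.57 ± 0.12 (SE, adjusted p = 0.00398), but it lost its call without mite-treated wild type replicate 2, at 0.44 (adjusted p = 0.0632). On the other side, the nearest genes Pigh and Plekhh1 stood at -0.01 and 0.01. The lower genes were Plek2 at -1.26 and Atp6v1d, a subunit of the vacuolar proton pump, at -0.52. Neighbours of other members differed too. Within 500 kb of Nos2, 4 of 18 measured genes were higher and 2 lower, and the adjacent Lgals9 stood at -0.88, after a wild type response of 1.55. Near Ido1, 3 of 10 were higher and 1 lower, with Tcim at 1.93. Near Arg1 1 of 5 and near Acod1 1 of 3 were higher, and none was lower. The 1 measured neighbour of Kynu was not called. Because the spans of Arg2 and Vti1b overlap and the positions of the probes are not given in the sources used here, whether these 2 probesets share signal was not tested.

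**Figure D2:**
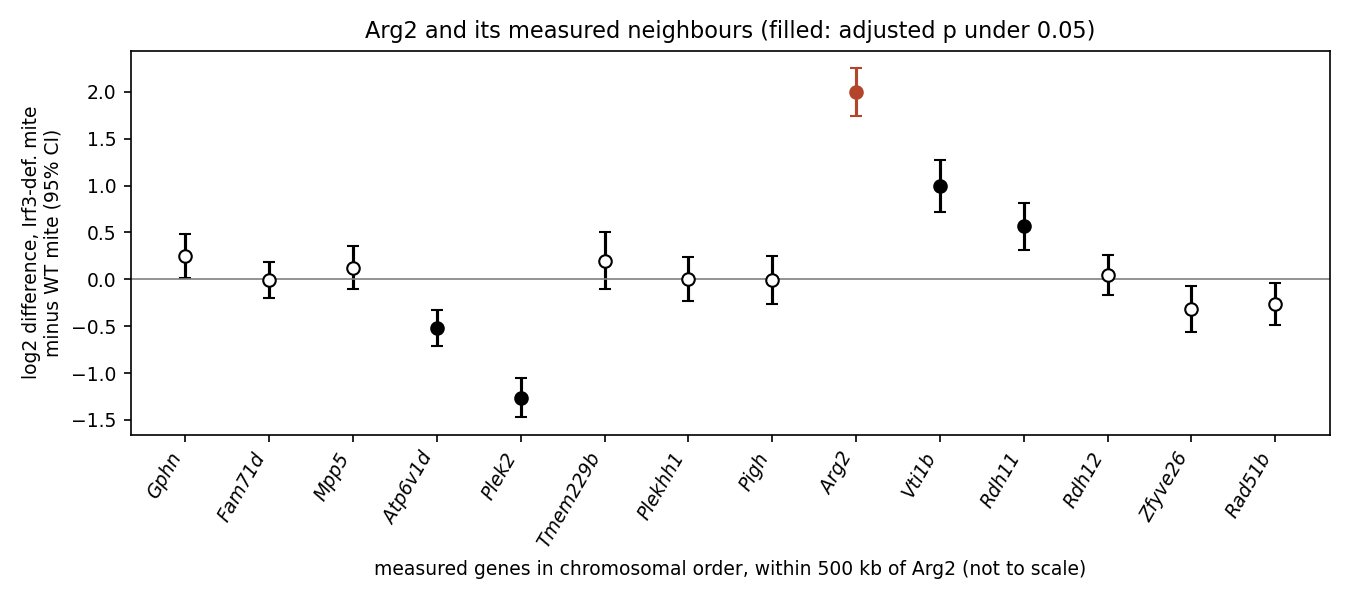
Log2 difference, mite-treated Irf3-deficient minus mite-treated wild type (vertical axis, with 95% CI), for Arg2 and the 13 measured genes within 500 kb, in chromosomal order and not to scale. Arg2 stands at 2.00, followed by Vti1b at 1.00 and Rdh11 at 0.57, and Pigh on the other side stands at -0.01.

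Arg1, the cytosolic arginase known as a marker of alternatively activated macrophages, stayed dim and passed in no comparison. It read 7.26, 7.06 and 7.61 in mite-treated Irf3-deficient arrays, against 7.19 and 6.97 in mite-treated and 7.08 and 7.04 in PBS-treated wild type arrays, so the groups overlapped in every comparison. The genotype difference was 0.23 (95% CI -0.08 to 0.53, adjusted p = 0.343) and the wild type response 0.02 (95% CI -0.31 to 0.36, adjusted p = 0.954). All 7 values lay below the median gene, where a change in RNA may show only in part, and the intervals leave room for changes of that size.

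Nos2, the inducible nitric oxide synthase, was highest in mite-treated wild type cells. Its level was 7.18, 7.12 and 7.22 in mite-treated Irf3-deficient arrays, against 7.67 and 8.40 in mite-treated and 6.99 and 7.10 in PBS-treated wild type arrays. Both mite-treated wild type arrays lay above the other 5, but they were 0.73 apart, and their SD of 0.52 exceeded those of 0.05 and 0.08 in the mite-treated Irf3-deficient and PBS-treated wild type groups. Mite extract raised Nos2 1.99-fold in wild type (95% CI 1.51 to 2.61, adjusted p = 0.00193). The gene was 1.82-fold lower in Irf3-deficient than in wild type treated cells (95% CI 1.42 to 2.33, adjusted p = 0.00236). Its calls held without either mite-treated wild type array, but the sizes moved. Leaving out replicate 2 gave a wild type response of 0.62 and a genotype difference of -0.50, and leaving out replicate 1 gave 1.36 and -1.23. Irf3-deficient treated cells differed from PBS-treated wild type by 0.13 (95% CI -0.23 to 0.48, adjusted p = 0.725).

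Among the tryptophan enzymes, Ido1, the main inducible dioxygenase, gave the same order of groups at a low level. It read 6.39, 6.43 and 6.45 in mite-treated Irf3-deficient arrays, against 7.11 and 7.38 in mite-treated and 6.23 and 6.22 in PBS-treated wild type arrays. Only the mite-treated wild type arrays exceeded the lower quartile of all genes. Ido1 rose 2.03-fold with mite extract in wild type (95% CI 1.72 to 2.39, adjusted p = 3.05e-05) and was 1.77-fold lower in Irf3-deficient treated cells (95% CI 1.52 to 2.06, adjusted p = 9.36e-05). Irf3-deficient treated cells stood 0.20 above PBS-treated wild type (95% CI -0.02 to 0.41, adjusted p = 0.272), and no array of either group overlapped the other. At such levels a fold on the array can understate the change in RNA, and whether it did here was not tested.

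Ido2, the paralog that lies next to Ido1 on chromosome 8 and that is known as the less active dioxygenase, passed in no comparison. It read 7.53, 7.44 and 7.53 in mite-treated Irf3-deficient arrays, against 7.75 and 7.51 in mite-treated and 7.28 and 7.43 in PBS-treated wild type arrays. Differences were 0.28 for the wild type response (95% CI 0.02 to 0.53, adjusted p = 0.138) and -0.13 between the treated genotypes (95% CI -0.36 to 0.10, adjusted p = 0.498).

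Kynu, which encodes kynureninase, was the brightest of the 7 genes, above 95.8% of all genes by its mean, and moved least among those called. Its level was 11.71, 11.63 and 11.63 in mite-treated Irf3-deficient arrays, against 12.10 and 12.08 in mite-treated and 11.81 and 11.67 in PBS-treated wild type arrays. The mite-treated wild type arrays lay above all others, and the other groups overlapped. Kynu was 1.35-fold lower in Irf3-deficient than in wild type treated cells (95% CI 1.18 to 1.54, adjusted p = 0.00362). Mite extract raised it 1.28-fold in wild type (95% CI 1.11 to 1.48, adjusted p = 0.0225). That rise lost its call in 6 of 16 settings, among them without PBS-treated wild type replicate 2 (0.29, adjusted p = 0.145) and without mite-treated wild type replicate 1 (0.35, adjusted p = 0.078) or replicate 2 (0.37, adjusted p = 0.0774). It also lost it with quantile normalisation repeated (0.28, adjusted p = 0.0639) and with each array centred on its median (0.33, adjusted p = 0.0511).

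Acod1, which makes itaconate, had the largest wild type response of the 7 genes and lay well above the PBS-treated wild type level in mite-treated Irf3-deficient cells. It read 9.53, 9.36 and 9.75 in mite-treated Irf3-deficient arrays, against 9.97 and 10.14 in mite-treated and 7.19 and 7.94 in PBS-treated wild type arrays. No pair of groups overlapped, and the PBS-treated arrays were the most variable, with an SD of 0.53 around a mean near the median gene. Acod1 rose 5.63-fold in wild type (95% CI 4.14 to 7.65, adjusted p = 2.96e-06). Irf3-deficient treated cells stood 3.95-fold above PBS-treated wild type (95% CI 2.98 to 5.22, adjusted p = 5.41e-05). Between the treated genotypes the difference was -0.51 ± 0.19 (SE) and did not pass (95% CI -0.92 to -0.11, adjusted p = 0.0756). That call depended on the PBS-treated arrays, which enter this comparison only through the estimate of spread. Without PBS-treated replicate 1 or replicate 2 the difference of -0.51 passed (adjusted p = 0.0181 each time).

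The bases just before the annotated start of Acod1 are shown because it was the most induced member and the RefSeq table of GRCm38.p6 holds promoter windows for 3 of the 9 genes, Acod1, Ass1 and Il4i1. The stretch covers the 250 bases before the start at chr14:103046762-103047011, plus strand. Capitals mark a match to the TATA box, TATAAA, at positions -28 to -23, a motif that was added to the search after the sequence was seen.
Acod1: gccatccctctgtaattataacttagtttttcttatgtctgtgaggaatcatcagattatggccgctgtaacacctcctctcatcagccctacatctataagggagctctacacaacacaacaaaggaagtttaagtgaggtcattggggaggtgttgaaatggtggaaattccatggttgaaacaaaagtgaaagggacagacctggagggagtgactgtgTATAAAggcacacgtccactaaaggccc
On both strands, and including 50 bases after the start, this window held no exact match to the interferon-stimulated response element (GAAANNGAAA), the interferon-gamma activated site (TTCNNNGAA), the NF-kB site (GGGRNNYYCC, R being A or G and Y being C or T), the antioxidant response element (TGACNNNGC) or the aryl hydrocarbon response element (GCGTG). Near matches were not counted, so absence of a working site was not tested. Examples are the stretch ggaaattcc beside the NF-kB pattern and aaaagtgaaa beside the pattern of the interferon-stimulated response element. Among all 32851 windows of that table, 3.44%, 8.30%, 8.46%, 12.4% and 32.4% held these motifs in that order, and 13.6% held TATAAA.

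**Figure D3:**
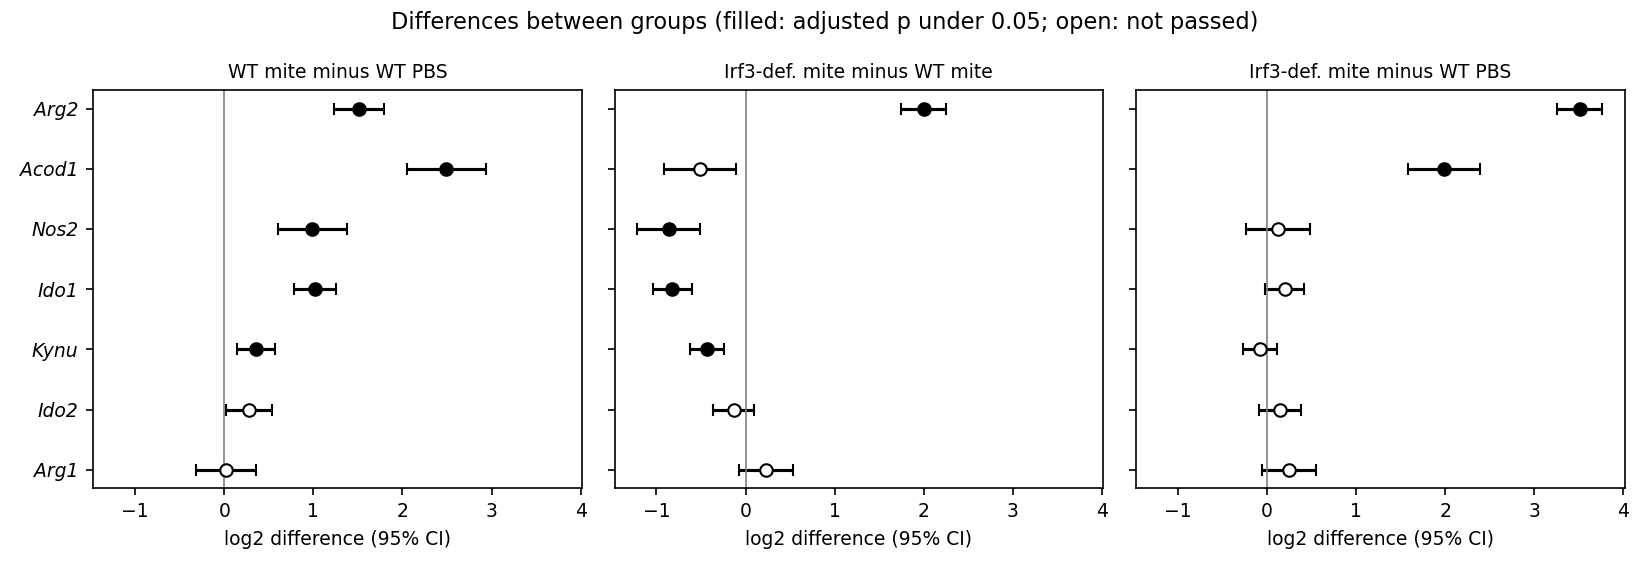
Log2 differences between groups (horizontal axis, with 95% CI) for the 7 measured genes in the 3 comparisons; filled points have an adjusted p under 0.05 and open points do not. Arg2 stands at 2.00 between the treated genotypes, where Nos2, Ido1 and Kynu stand at -0.86, -0.82 and -0.44.

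The groups did not overlap for 6 of the 7 genes in the wild type comparison, for 5 between the treated genotypes and for 5 between mite-treated Irf3-deficient and PBS-treated wild type cells. Over all genes this held for 52.6%, 43.7% and 39.1%. With 2 or 3 arrays a group, such counts say little, and the fits above carry the comparisons.

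Genes that supply or use the same metabolites moved in both directions, and the counts below stand beside 17.6% of all genes called in the wild type response and 19.7% between the treated genotypes. Of 34 listed arginine and polyamine genes, 28 were measured, and in wild type 5 rose with mite extract and 4 fell (median -0.05). Slc7a2, a transporter that brings arginine into the cell, averaged 8.77 in mite-treated and 7.94 in PBS-treated wild type and rose by 0.83 (adjusted p = 0.00227). Sat1, which acetylates polyamines for export and breakdown, rose by 0.59, and Gamt of creatine synthesis fell by 0.69. Asl, which completes the recycling of citrulline to arginine, rose by 0.48 (adjusted p = 0.0131), but lost its call without PBS-treated replicate 1 or mite-treated replicate 1. Without PBS-treated replicate 1, mite-treated replicate 1 or mite-treated replicate 2 there were 3 rises and 3 falls, and without PBS-treated replicate 2 there were 5 and 2.

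Between the treated genotypes, 6 of these 28 arginine and polyamine genes were higher in Irf3-deficient cells and 4 lower (median 0.05). Srm, spermidine synthase, averaged 11.46 in mite-treated Irf3-deficient and 10.35 in mite-treated wild type cells, a difference of 1.12 ± 0.12 (SE, adjusted p = 3.68e-05). In wild type it fell by 0.68 with mite extract (adjusted p = 0.00285). Gatm of creatine synthesis was higher by 0.56 (adjusted p = 0.00121). Oat, which converts ornithine, the product of arginase, was higher by 0.48 (adjusted p = 0.00671) but lost its call without mite-treated wild type replicate 2, at 0.39 (adjusted p = 0.0721). Gch1, the first enzyme in making the cofactor of nitric oxide synthase, was lower, at -0.69 ± 0.10 (SE, adjusted p = 0.00029), and Sat1 was lower at -0.57. Without mite-treated wild type replicate 2 the counts were 3 higher and 3 lower.

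In the list on tryptophan, kynurenine and the aryl hydrocarbon receptor, the wild type response held 2 rises and 3 falls among 27 measured genes, a share close to the 17.6% of all genes. Nampt, which makes NAD from nicotinamide and so bypasses the kynurenine route, averaged 12.63 in mite-treated and 10.83 in PBS-treated wild type, a rise of 1.80 ± 0.11 (SE, adjusted p = 2e-07). Wars, the cytosolic tryptophanyl-tRNA synthetase, rose by 0.68 (adjusted p = 0.0019). The 3 falls were those of Haao, Kyat1 and Maoa, and without mite-treated replicate 2 there were 0 falls; without PBS-treated replicate 2 there were 3 rises and 1 fall. Between the treated genotypes 4 of the 27 were higher in Irf3-deficient cells and 4 lower. Nampt was lower at -1.29 ± 0.10 (SE, adjusted p = 1.97e-06), and Maoa, a monoamine oxidase, was higher by 0.55. Ahr, the receptor for kynurenine and related ligands, was higher by 0.53 (adjusted p = 0.00539) and lost its call without mite-treated wild type replicate 2, at 0.41 (adjusted p = 0.068). Kmo, which competes with Kynu for kynurenine, was lower at -0.40 (adjusted p = 0.0105) and lost its call without mite-treated wild type replicate 1, at -0.29 (adjusted p = 0.115). Without mite-treated wild type replicate 2 the counts were 2 and 2, and without replicate 1 they were 4 and 2.

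In the list on itaconate and the citrate cycle, 2 of 31 measured genes rose in wild type and 6 fell. Keap1, a repressor of the antioxidant response that itaconate is known to modify, rose by 1.20 ± 0.11 (SE, adjusted p = 9.05e-06), and the citrate carrier Slc25a1 rose by 0.83. Clybl, an enzyme in the breakdown of itaconate, fell by 0.78 (adjusted p = 0.00161), and Idh2 and Suclg2 of the citrate cycle fell by 0.70 and fell by 0.63. Without mite-treated replicate 2 there were 2 rises and 3 falls, and without PBS-treated replicate 1 or replicate 2 there were 3 and 4. Between the treated genotypes 7 were higher in Irf3-deficient cells and 6 lower. Idh3a, a subunit of isocitrate dehydrogenase, averaged 10.80 in mite-treated Irf3-deficient and 9.85 in mite-treated wild type cells, a difference of 0.95 ± 0.11 (SE, adjusted p = 4.55e-05). Suclg2 was higher by 0.78 and Nfe2l2, the factor that Keap1 restrains, by 0.58. Keap1 was lower at -1.08 (adjusted p = 1.06e-05), and Slc25a1 and Auh, a hydratase of leucine breakdown, were lower at -0.59 and -0.85. Without mite-treated wild type replicate 2 the counts were 4 higher and 5 lower.

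**Figure D4:**
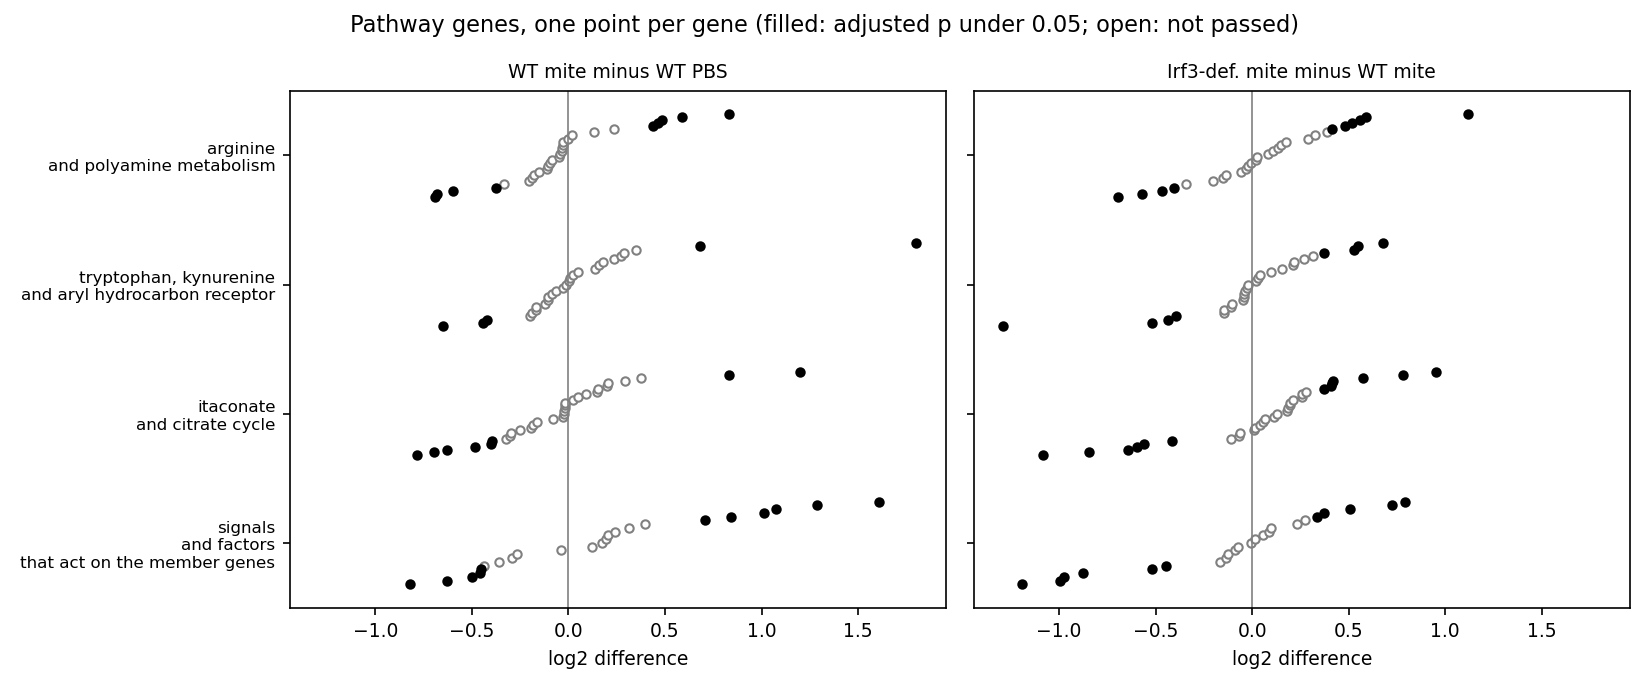
Log2 difference (horizontal axis) of each measured gene of the 4 pathway lists in the wild type response and between the treated genotypes; each point is a gene, filled where the adjusted p is under 0.05. Points lie on both sides of 0 in every list, with Nampt at 1.80 in wild type and -1.29 between the genotypes.

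Of 23 measured signals and factors known to act on the enzyme genes, 6 rose in wild type and 5 fell. The interferon response factors Irf8 and Irf1, both known activators of Nos2 or Ido1 in macrophages and other cells, rose by 1.61 (adjusted p = 1.45e-06) and 1.01 (adjusted p = 0.000109). Ifngr1, a chain of the interferon-gamma receptor, fell by 0.82 (adjusted p = 0.000269). Without PBS-treated replicate 1 there were 6 rises and 2 falls, and without mite-treated replicate 1 there were 8 and 3. Between the treated genotypes 5 were higher in Irf3-deficient cells and 6 lower. Irf8 averaged 11.40 in mite-treated Irf3-deficient and 12.60 in mite-treated wild type cells, a difference of -1.19 ± 0.11 (SE, adjusted p = 1.06e-05). Irf1 differed by -0.996 and the NF-kB subunit Relb by -0.97. Pparg, a nuclear receptor, was higher by 0.79 ± 0.14 (SE, adjusted p = 0.0014), and Ifngr1 by 0.73. Without mite-treated wild type replicate 1 the counts were 3 and 5.

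Some of the lists of markers of other cells and of maturation moved with the same groups. The counts below stand beside 17.6% of all genes called in the wild type response and 19.7% between the treated genotypes. Of 14 measured monocyte and interstitial macrophage markers, 13 fell and 1 rose in wild type with mite extract, and 12 were higher and 2 lower in Irf3-deficient than in wild type treated cells. The mean of this list per array was 11.37 to 11.48 in mite-treated Irf3-deficient, 10.41 to 10.91 in mite-treated wild type and 11.71 to 12.02 in PBS-treated wild type arrays. Arg2, like 12 of these markers, was higher in Irf3-deficient than in wild type treated cells. In the wild type response Arg2 rose, and 13 of the markers fell. The marker that rose in wild type was Fcgr1, the gene of CD64, for which the sort was negative, and it was also lower, with Apoe, in Irf3-deficient treated cells. It averaged 9.13 in mite-treated Irf3-deficient, 10.80 in mite-treated wild type and 9.01 in PBS-treated wild type cells. Of 16 measured markers of mature dendritic cells, 13 rose in wild type and 9 were lower in Irf3-deficient treated cells, with means per array of 12.69 to 12.83, 13.16 to 13.19 and 12.09 to 12.17 in the same order of groups. Of 9 measured T, NK and B cell markers, 4 rose and 1 fell in wild type and 2 were higher and 4 lower in Irf3-deficient treated cells, with means of 6.74 to 6.79, 7.03 to 7.04 and 6.73 to 6.86. The mite-treated wild type arrays were highest for this list, and the other groups overlapped. Its genes did not move as 1: Cd8a averaged 8.45, 9.46 and 8.05 in the same order, and Gzmb 6.20, 7.33 and 6.34. Ms4a1 (5.95, 6.84 and 6.22) and Ncr1 (6.10, 6.59 and 6.07) were also highest in mite-treated wild type. Cd4 (8.86, 8.28 and 9.30) and Klrb1c (5.89, 5.54 and 5.78) were lowest there. Cd3e (7.66, 7.67 and 7.78), Cd3g (5.98, 5.86 and 5.90) and Cd79a (5.77, 5.77 and 5.72) differed little. Of the 12 cDC2 markers, 1 rose and 5 fell in wild type, and 6 were higher and 1 lower in Irf3-deficient treated cells. Of 7 lung epithelial markers, 3 fell and 0 rose in wild type and 1 was higher and 1 lower in Irf3-deficient treated cells, with means of 10.10 to 10.29, 9.97 to 10.32 and 10.45 to 10.61. Epcam, an adhesion molecule of epithelial cells that some dendritic cells also carry, averaged 10.80 in mite-treated Irf3-deficient, 9.02 in mite-treated wild type and 9.96 in PBS-treated wild type cells. In the same order Sftpc averaged 11.98, 12.51 and 13.09, Sftpb 9.38, 9.67 and 10.37 and Scgb1a1 11.62, 12.61 and 13.05. Between the treated genotypes these lay opposite to Epcam, though the arrays of Scgb1a1 overlapped. Cdh1 averaged 10.77, 10.46 and 10.65, on the side of Epcam, while Krt8 (8.80, 8.80 and 8.70) and Krt18 (7.90, 7.94 and 7.90) differed little. Of 8 alveolar macrophage markers, 2 rose and 3 fell in wild type and 2 were higher and 0 lower in Irf3-deficient treated cells, with means of 9.83 to 9.98, 9.52 to 9.58 and 9.68 in the same order. Of 8 cDC1 markers, 1 rose and 3 fell in wild type and 1 was higher and 2 lower in Irf3-deficient treated cells, with means of 9.26 to 9.48, 9.40 to 9.67 and 9.48 to 9.87. Of 10 neutrophil markers, 1 rose and 0 fell in wild type and 2 were higher and 0 lower in Irf3-deficient treated cells, with means of 7.20 to 7.23, 7.11 to 7.15 and 6.96 to 7.21. On this log scale no marker can be at 0. What part these cells and states had in the enzyme genes was not tested.

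To show which genes followed the most variable members, Pearson's r over the 7 arrays was computed for Arg2, Acod1, Ido1 and Nos2 against all genes. These r values describe 3 groups of arrays that share 1 normalisation, and they carry no test. Arg2 was most like Ppp3cc, a calcineurin subunit, Anxa3, an annexin, and Ube2e2, a ubiquitin-conjugating enzyme, at 0.993, 0.993 and 0.992. Anxa3 averaged 12.49 in mite-treated Irf3-deficient, 11.91 in mite-treated wild type and 11.36 in PBS-treated wild type cells, the same steps as Arg2 over a narrower range. Acod1 was most like Ikzf4, a zinc finger transcription factor, Rhoc, a small GTPase, and Il12b, a cytokine subunit, at 0.994, 0.992 and 0.992. Ido1 was most like Snx2, Tex14 and Tent4a, at 0.996, 0.995 and 0.995. Nos2 was most like Olfr1254, Tmem184a and Lhx2, at 0.996, 0.991 and 0.990, of which Olfr1254 lay between 4.05 and 4.23 in all arrays, among the dimmest genes.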

How the data were processed

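The deposited table holds log2 values for 35556 probesets on 7 arrays, per the file and its range of 3.47 to 14.9. R 3.2.1, oligo and RMA are named, with no role or order, per the submitters' processing notes. Array medians of 7.60 to 7.69 fit values normalised between arrays, in which a shift of most genes could not be seen. The genome build is not given in the sources used here.

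Of the probesets, 21789 carried 1 symbol, 1621 several and 12146 were not listed. Symbols were updated by Entrez identifier (19856 of 19938 genes matched), and the brightest probeset was kept for 999 genes with several. All arrays entered 1 fit with a mean per group in limma 3.58.1 (R 4.3.3; eBayes with trend; 4 residual and 8.34 prior degrees of freedom), two-sided, adjusted over all genes; it was tested on simulated data. A 95% CI is that of the moderated fit. Nothing says that the pools come from separate experiments, so p-values measure the spread between these samples.

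Members and gene lists were chosen with earlier results of these data known. Pathway genes named are, per list, direction and comparison, up to 4 called genes with the smallest p; of these, the text gives a selection. Genes most like a member are the top 3 by r, without predicted genes. Neighbours were taken within 500 kb. Alternatives changed the trend, normalisation, brightness filter, probeset rule, arrays in the fit, block and weights. The planned protein comparison was not made.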

Additional observations from a re-analysis of the deposited data

How the results depend on the processing

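Each of the 3 counts of called members stayed within 1.5 times its value in all 16 alternatives: 4 to 5 for mite-treated against PBS-treated wild type, 3 to 5 between the treated genotypes and 2 in the third comparison. With the replicate block they were 4, 5 and 2. The labels do not say that equal replicate numbers share a batch. Deviations of same-numbered arrays correlated at -0.23 between the wild type groups and at -0.09 to 0.18 otherwise, so the numbers were not taken as pairs. The block took the call of the Kynu rise (0.36, adjusted p = 0.0592) and gave one to the Acod1 genotype difference (-0.61, adjusted p = 0.0332). It changed no other call of a member. That Acod1 difference also passed with only the 2 groups in the fit (-0.51, adjusted p = 0.0181) and with array weights (-0.56, adjusted p = 0.0333). The sign of the wild type Arg1 difference of 0.02 turned with repeated quantile normalisation (-0.0365), with median centring (-0.0028), without PBS-treated replicate 2 (-0.0016) and without mite-treated wild type replicate 1 (-0.0871), and leaving out 1 array each time gave -0.0871 to 0.1285, with adjusted p never under 0.757. Ido1 drops out where genes under the lower quartile are left out. Of 59 results for pathway genes picked by the rule, 39 kept their call in every setting. A fit of all 35556 probesets, chosen after seeing the data, changed no call of a member. Dim genes (Arg1, Ido1, Ido2 and Nos2) and 2 arrays per wild type group limit what could be seen.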

Other observations

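The probesets that list Ass1 or Il4i1 together with a second locus cannot be assigned to 1 gene, and their values are given as such. A probeset listing Gm5424 and Ass1, the gene of the enzyme that returns citrulline towards arginine, read 12.29, 12.09 and 12.23 in mite-treated Irf3-deficient arrays, against 12.86 and 12.85 in mite-treated and 11.30 and 11.35 in PBS-treated wild type arrays. In a fit of all 35556 probesets with limma, added after seeing the data, it was lower by a difference of -0.66 between the treated genotypes (adjusted p = 0.00249) and rose by 1.53 in wild type (adjusted p = 8.29e-05). The second probeset with these symbols gave -0.63 and 1.51. The probeset listing Il4i1b and Il4i1, a secreted amino acid oxidase, read 12.23, 12.68 and 12.90 in mite-treated Irf3-deficient arrays, against 12.73 and 12.54 in mite-treated and 11.34 and 11.66 in PBS-treated wild type arrays. It rose by 1.13 in wild type (adjusted p = 0.0155) and stood at -0.03 between the treated genotypes (adjusted p = 0.953). Il4i1 lies on chromosome 7 within 500 kb of Irf3, where 59 genes were measured, of which 6 were higher and 6 lower in Irf3-deficient treated cells, a share close to the 19.7% of all genes called in that comparison.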
